A study of Mus musculus with 8 samples.

Results

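The E protein and Id genes are 6 genes, chosen by name: the E proteins *Tcf3*, *Tcf4* and *Tcf12* and the inhibitors *Id1*, *Id2* and *Id3*. Their chromatin was examined by ATAC-seq, in which the Tn5 transposase inserts adapters into open DNA, so that regions with many fragments are the accessible ones. The cells were MPP3 and MPP4, mouse bone marrow progenitors that lean toward the myeloid (MPP3) and the lymphoid (MPP4) lineages. MPP3 cells were sorted as Lin-Sca1+cKit+ (LSK) cells without CD150 and with CD48, and MPP4 cells also carried Flt3. Each of the 8 libraries came from 5000 cells of a C57BL/6 mouse aged 8 to 9 weeks, with 2 libraries per genotype and cell type. By the labels, *Ebf1*WT mice were Ebf1fl/fl Tie2Cre +/+ and *Ebf1*KO mice were Ebf1fl/fl Tie2Cre +/cre, so that both genotypes carried floxed *Ebf1* and Cre was present only in the *Ebf1*KO mice. The series' design text instead gives wild-type *Ebf1* alleles with Tie2Cre for the controls. Tie2 (*Tek*) drives Cre in hematopoietic and also in endothelial cells. Assigned to the 6 genes were 48 of 87642 peaks in MPP3 cells and 51 of 86952 peaks in MPP4 cells.

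The deposited table of each cell type holds 1 mean level per peak over its 4 libraries, both genotypes together. Peaks came from a union over genotypes, so a peak listed for a cell type may have been open in either genotype. No spread between mice, no difference between genotypes and no total count per library can be given from these means, and no test was run. The depth behind each value is therefore unknown here, and all values below are single values without replicate error. MPP3 and MPP4 tables were normalized separately, so levels set side by side between cell types are descriptions, read best as percentiles within each table.

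E proteins are basic helix-loop-helix transcription factors that bind, as dimers, to the E-box, a short sequence of the form CANNTG. *Tcf3* encodes the splice products E12 and E47, together known as E2A, which act above *Ebf1* in B cell development. *Tcf4* encodes E2-2, a factor needed by plasmacytoid dendritic cells, and *Tcf12* encodes HEB, which acts mainly in thymocytes. Id proteins have the helix-loop-helix part but lack the basic region, so they pair with E proteins and keep them off DNA. *Id2* is known for its role in innate lymphoid cells, *Id3* for restraining E2A in lymphocytes, and *Id1* is a target of BMP signals. EBF1 and E2A act together at many genes of early B cells.

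The sorted cells were checked by the promoter peaks of marker genes. The promoter of *Flt3* lay at percentile 97.7 of all peaks in MPP3 cells and 99.5 in MPP4 cells by its level per kb, and summed *Flt3* accessibility was 170.1 CPM (fragment counts scaled to a common library total) in MPP3 and 318.7 in MPP4 cells. *Kit* promoters lay at percentiles 95.6 and 96.8 and *Cd34* promoters at 93.4 and 94.1. *Kit* and *Flt3* are sort markers, and other sort markers were less open. *Cd48*, for which cells were selected, had promoter peaks at percentiles 38.5 and 46.5. *Slamf1*, which encodes CD150 and was selected against, had them at 30.6 and 40.3. It had the larger gene sum (17.3 and 24.6 CPM, against 12.5 and 5.67 CPM for *Cd48*). In MPP4 cells *Cd48* had 2 promoter peaks but only 1 peak assigned to it, so its sum there leaves out a promoter peak assigned to another gene. *Ly6a*, which encodes Sca1, had no promoter peak in MPP3 cells and 1 at percentile 37.8 in MPP4 cells. Of 3 T cell markers (*Cd3e*, *Cd3g*, *Cd8a*), 0 had a promoter peak in MPP3 and 1 in MPP4 cells, where *Cd3g* lay at percentile 8.04. Of 3 B cell markers, 2 had one in MPP3 (percentiles 32.1 to 66.1) and 1 in MPP4 cells (30.4). Of 4 mature myeloid markers, 2 had one in MPP3 (10.5 to 65.7) and 1 in MPP4 cells (71.0), and of 3 erythroid markers, 2 in each cell type (25.7 to 54.5). The erythroid marker *Klf1* had no promoter peak but 1 other peak, of 46.3 CPM in MPP3 and 39.6 CPM in MPP4 cells. The part of other cell types in the levels below was not tested. In these bulk libraries, a region open in more cells and a region more open in each cell cannot be told apart.

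Among the open regions of *Tcf3* and *Tcf12* outside their promoters, some had E-boxes around their centre and others a match to the EBF1 consensus. The sequences of 5 such regions are shown because the levels and motifs described below refer to them. Each is the plus strand of mm10 over the 200 bp around the centre of a peak, with matches in capitals. The E-box words searched were CAGGTG, which reads CACCTG on the opposite strand, and the palindrome CAGCTG. The EBF1 consensus was TCCCNNGGG, which reads CCCNNGGGA on the opposite strand. The element 12.7 kb upstream of *Tcf3* holds 2 E-boxes. The intronic element of MPP3 cells comes from a peak of 153 bp, and its EBF1 match lies in the window but just outside the peak. The element 9.9 kb into *Tcf3* holds an EBF1 match with both flanking bases, which fits either form, and both *Tcf12* elements hold CAGCTG. The elements at 9.9 kb of *Tcf3* and 14.6 kb of *Tcf12* were picked after their values were seen.
*Tcf3* 12.7 kb upstream, chr10:80446294-80446493: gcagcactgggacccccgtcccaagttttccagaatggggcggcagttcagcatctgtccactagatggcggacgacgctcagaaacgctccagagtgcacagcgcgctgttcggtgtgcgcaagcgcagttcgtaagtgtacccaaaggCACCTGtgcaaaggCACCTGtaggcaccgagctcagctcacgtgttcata
*Tcf3* intronic element of MPP3 cells, chr10:80429819-80430018: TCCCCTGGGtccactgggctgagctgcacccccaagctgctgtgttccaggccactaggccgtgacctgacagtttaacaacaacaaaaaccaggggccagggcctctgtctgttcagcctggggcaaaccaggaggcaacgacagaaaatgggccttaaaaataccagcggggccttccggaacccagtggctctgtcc
*Tcf3* 9.9 kb into the gene, chr10:80423642-80423841: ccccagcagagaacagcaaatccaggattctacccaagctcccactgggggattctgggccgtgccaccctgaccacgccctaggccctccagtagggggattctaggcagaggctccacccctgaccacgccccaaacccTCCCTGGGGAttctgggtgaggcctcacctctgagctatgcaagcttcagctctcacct
*Tcf12* 14.6 kb into the gene, chr9:72097180-72097379: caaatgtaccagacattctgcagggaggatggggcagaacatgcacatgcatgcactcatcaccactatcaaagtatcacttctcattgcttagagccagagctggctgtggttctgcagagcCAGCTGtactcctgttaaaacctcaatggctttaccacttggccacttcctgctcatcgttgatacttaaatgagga
*Tcf12* 22.8 kb into the gene, chr9:72088990-72089189: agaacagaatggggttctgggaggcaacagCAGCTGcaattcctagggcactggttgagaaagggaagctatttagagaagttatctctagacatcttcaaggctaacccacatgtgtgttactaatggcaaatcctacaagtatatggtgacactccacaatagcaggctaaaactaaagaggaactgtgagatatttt

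Around the Id genes, E-boxes stood both upstream and downstream of the genes, in regions rich in G and C. The 5 sequences below were chosen among the more open regions of these genes outside exons. They are printed in the same way, plus strand of mm10 with E-boxes in capitals. CAGCTG is found upstream of *Id1*, upstream of *Id2* and downstream of *Id2*. CAGGTG is found downstream of *Id3*, and the downstream element of *Id1* in MPP4 cells holds both words.
*Id1* 1.1 kb upstream, chr2:152735099-152735298: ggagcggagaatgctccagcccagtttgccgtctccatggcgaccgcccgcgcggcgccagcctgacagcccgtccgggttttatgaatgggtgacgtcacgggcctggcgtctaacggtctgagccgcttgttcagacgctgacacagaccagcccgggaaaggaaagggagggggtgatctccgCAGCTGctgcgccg
*Id1* downstream element of MPP4 cells, chr2:152739425-152739624: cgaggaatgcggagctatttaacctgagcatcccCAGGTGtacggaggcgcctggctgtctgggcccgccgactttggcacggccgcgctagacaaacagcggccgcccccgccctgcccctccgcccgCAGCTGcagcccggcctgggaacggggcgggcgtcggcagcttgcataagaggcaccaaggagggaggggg
*Id2* 1.8 kb upstream, chr12:25098817-25099016: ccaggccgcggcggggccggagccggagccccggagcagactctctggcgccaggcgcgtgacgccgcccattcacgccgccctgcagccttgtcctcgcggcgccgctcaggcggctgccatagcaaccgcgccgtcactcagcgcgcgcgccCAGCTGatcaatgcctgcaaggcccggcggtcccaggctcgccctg
*Id2* downstream of the gene, chr12:25092335-25092534: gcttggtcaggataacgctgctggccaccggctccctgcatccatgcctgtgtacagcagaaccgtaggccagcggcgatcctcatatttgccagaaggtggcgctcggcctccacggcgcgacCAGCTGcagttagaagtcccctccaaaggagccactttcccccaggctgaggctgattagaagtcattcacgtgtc
*Id3* downstream of the gene, chr4:136147832-136148031: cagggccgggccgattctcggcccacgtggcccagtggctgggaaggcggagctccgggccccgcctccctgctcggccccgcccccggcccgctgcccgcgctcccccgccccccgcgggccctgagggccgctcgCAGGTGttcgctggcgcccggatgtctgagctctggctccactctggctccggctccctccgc

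*Tcf3* (chr10:80409514-80433647, minus strand) had 5 peaks in each cell type, of which 4 were found in both. Their summed accessibility was 103.9 CPM in MPP3 cells, at percentile 91.02 among the 25616 genes with a peak, and 83.3 CPM in MPP4 cells, at percentile 87.5 among 25335 genes. A peak was counted as promoter when its centre lay within 1 kb of a transcript start. A single promoter peak, centred 0.3 kb upstream of the start, carried 80.8% of that sum in MPP3 and 80.6% in MPP4 cells. Its level, as mean log2 CPM per kb of peak, was 6.78 (percentile 96.8 of all peaks) in MPP3 and 6.43 (percentile 94.5) in MPP4 cells. This was the highest level per kb of any E protein peak in both cell types, and its central 200 bp held neither E-box word and no EBF1 match.

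The other *Tcf3* peaks were weaker. The element 12.7 kb upstream, with its pair of E-boxes, stood at 4.90 in MPP3 and 4.63 in MPP4 cells. The element 9.5 kb upstream, which holds CAGGTG, stood at 4.20 (percentile 53.4) in MPP3 and 3.37 (percentile 17.2) in MPP4 cells. The intronic element at 9.9 kb, with the EBF1 match that has both flanking bases, stood at 3.90 (percentile 40.5) in MPP3 and 3.38 (percentile 17.6) in MPP4 cells. All 4 shared *Tcf3* peaks thus had the lower level per kb in MPP4 cells, by 0.27 to 0.84 on the log2 scale. For the element 12.7 kb upstream, this direction rests on peak length. Not divided by length, it had 7.15 CPM over 239 bp in MPP3 and 7.73 CPM over 312 bp in MPP4 cells. The intronic peak 3.7 kb into the gene was listed in MPP3 cells only, at 4.93 (percentile 74.8), whereas a peak of 150 bp located 2.3 kb upstream was listed in MPP4 cells only, at 4.36 (percentile 56.8).

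*Tcf12* (chr9:71842688-72111871, minus strand) spans 269.2 kb and had 8 peaks in each cell type. Its summed accessibility was 50.7 CPM in MPP3 and 50.4 CPM in MPP4 cells, at percentiles 75.6 and 75.6 among genes. The peak over the main start stood at 5.11 in MPP3 and 4.69 in MPP4 cells, at percentiles 78.4 and 66.1, which was well below the promoter of *Tcf3*. A peak at an internal transcript start 215.7 kb into the gene stood at 4.50 in MPP3 and 3.86 in MPP4 cells. Near the 5′ end, the intronic element at 14.6 kb was at 3.57 (percentile 22.4) in MPP3 and 4.40 (percentile 57.9) in MPP4 cells, and the neighbouring element at 22.8 kb was at 4.46 and 4.89. The highest *Tcf12* level was thus at the start in MPP3 cells but at the 22.8 kb element in MPP4 cells. Weak intronic peaks at 11.8 kb (3.48) and 17.0 kb (2.75) were listed in MPP3 cells only, and a promoter-side peak 1.0 kb into the gene (4.59) in MPP4 cells only.

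Part of the *Tcf12* region was assigned to other genes. Centred in its window were 12 peaks in MPP3 and 15 in MPP4 cells. Of these, 4 and 7 were closer to the start, midpoint or end of a transcript of a predicted gene. A peak at chr9:71951246-71951664, in the *Tcf12* body and closest to *Gm27152*, stood at 4.97 in MPP3 cells and its counterpart at 5.59 in MPP4 cells, above each peak given to *Tcf12* in MPP4 cells. The same rule gave 2 peaks in MPP3 and 3 in MPP4 cells of the *Tcf3* window to *Mbd3* and *Uqcr11*, and 2 peaks of the *Id1* window in each cell type to *Gm14162*. In the *Id3* window, *Gm26001* received 3 peaks in MPP3 and 1 in MPP4 cells. The windows of *Id2* and *Tcf4* lost 0 peaks.

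*Tcf4* (18:69343356-69689079, plus strand) is 345.7 kb long and had the most peaks of the 6 genes, 24 in MPP3 and 28 in MPP4 cells. Its summed accessibility was 192.0 CPM in MPP3 and 224.5 CPM in MPP4 cells, at percentiles 97.9 and 98.7 among genes. Most of these peaks were weak: the median level per kb was 3.86 (percentile 38.5 of all peaks) in MPP3 and 3.70 (percentile 32.6) in MPP4 cells. Peaks near its many transcript starts carried 43.7% of the summed accessibility in MPP3 and 30.0% in MPP4 cells. No sequence of this gene is shown.

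Open regions of *Tcf4* fell into groups along the gene. The peak at its 5′ end, 1.0 kb after the gene start and 0.1 kb from a transcript start, stood at 6.18 in MPP3 and 5.99 in MPP4 cells. Another group lay 248.4 to 252.6 kb into the gene around internal starts, with its highest member at 5.72 in MPP3 and 6.06 in MPP4 cells. A further pair of peaks lay at 319.1 kb (5.03 and 5.52) and 323.0 kb (5.38 and 4.99). The intronic peak at 232.2 kb, 0.7 kb long in MPP3 cells, stood at 4.66 (percentile 68.2) in MPP3 and 5.94 (percentile 89.5) in MPP4 cells. Its difference of 1.28 was the largest of all member peaks found in both cell types. In CPM, this single peak accounted for 18.1 in MPP3 and 47.8 in MPP4 cells. A neighbour at 233.1 kb (4.66) was listed in MPP4 cells only.

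**Figure D1:**
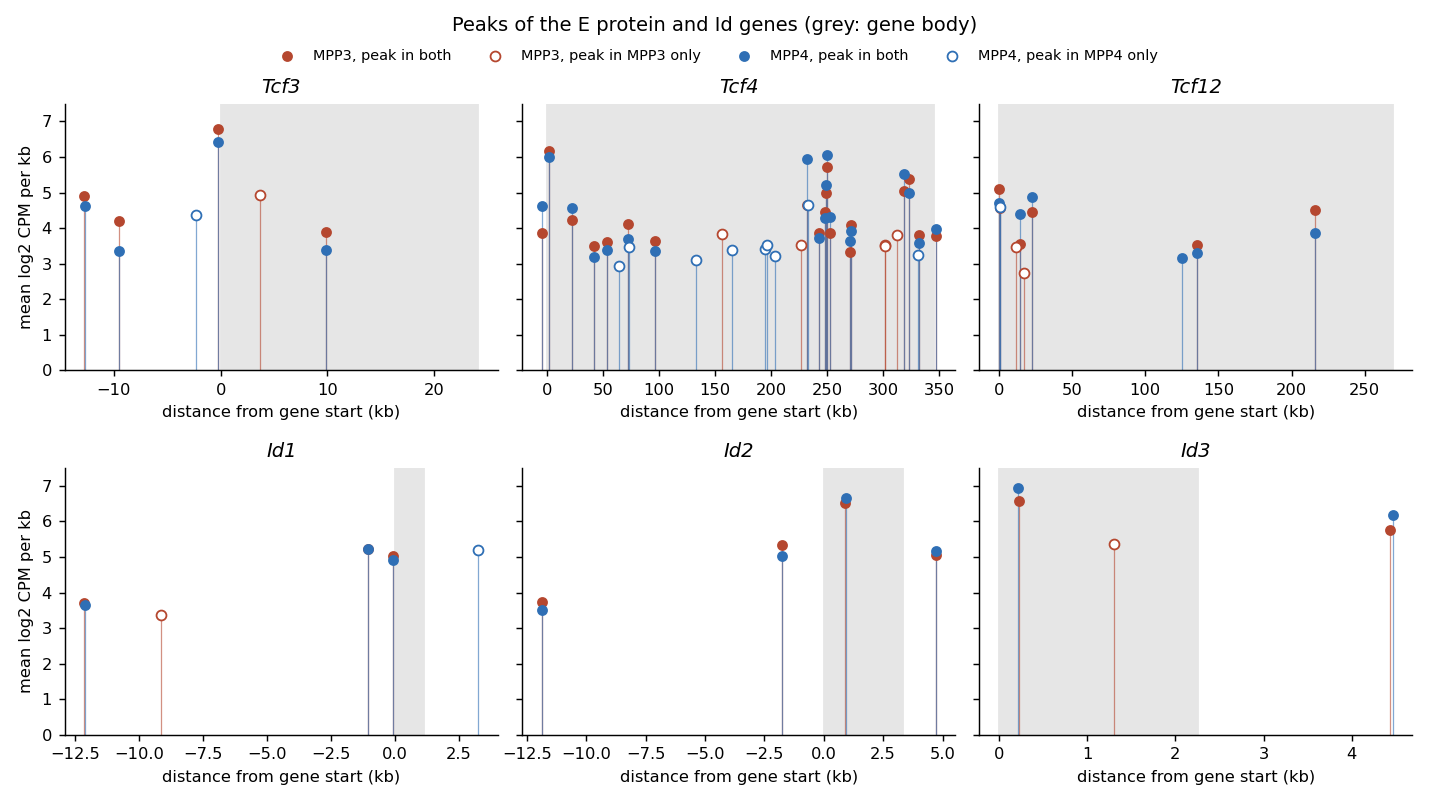
Position and level of each peak of the 6 genes. The horizontal axis is the distance of the peak centre from the gene start in kb, in the direction of transcription, and the vertical axis is the mean log2 CPM per kb. Filled points are peaks that overlap a peak of the other cell type, open points are peaks of a single cell type, and grey marks the gene body. The highest points lie at the starts of *Tcf3*, *Id2* and *Id3*, and the MPP4 point of *Tcf4* at 232.2 kb stands 1.28 above the MPP3 point.

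The Id genes are short, with few peaks each, and most of their open chromatin was at the gene start or a few kb away. *Id2* (chr12:25093799-25097140, minus strand) had 4 peaks in each cell type, all 4 shared, with summed accessibilities of 65.2 CPM in MPP3 and 59.0 CPM in MPP4 cells. Its promoter peak, centred 0.9 kb into the gene, stood at 6.51 in MPP3 and 6.66 in MPP4 cells, at percentiles 95.2 and 96.2. The element 1.8 kb upstream stood at 5.33 and 5.03 and the element 4.7 kb from the start, beyond the gene end, at 5.04 and 5.17. The most distal peak, 11.9 kb upstream, was weak at 3.74 and 3.50. The order of the 4 peaks differed between cell types only in the middle pair, whose values lie 0.3 log2 units apart or less within each table.

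*Id3* (chr4:136143497-136145755, plus strand) had 3 peaks in MPP3 and 2 in MPP4 cells. The promoter peak at the gene start stood at 6.58 in MPP3 and 6.95 in MPP4 cells, at percentiles 95.7 and 97.8, the highest level of all member peaks in MPP4 cells. The downstream element, 4.4 kb from the gene start in MPP3 cells, stood at 5.75 (percentile 88.3) in MPP3 and 6.19 (percentile 92.3) in MPP4 cells. Both shared *Id3* peaks had the higher value in MPP4 cells, and the gene's sum was 65.6 CPM in MPP3 and 75.4 CPM in MPP4 cells. An intronic peak 1.3 kb into the gene was listed in MPP3 cells only at 5.35 (percentile 82.6). It lay 0.2 kb from an internal transcript start and so also counts as a promoter peak.

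*Id1* (chr2:152736251-152737410, plus strand) had the lowest sum of the 6 genes, 27.8 CPM in MPP3 and 32.5 CPM in MPP4 cells, at percentiles 59.7 and 63.5 among genes. With every peak in its window, including those closer to *Gm14162*, its sum was 147.1 CPM in MPP3 and 101.5 CPM in MPP4 cells, above *Id2* and *Id3*. The element 1.1 kb upstream stood at 5.24 in both cell types and was slightly above the peak at the start, which stood at 5.02 in MPP3 and 4.93 in MPP4 cells. Only 30.8% of its summed accessibility in MPP3 and 27.9% in MPP4 cells was within 1 kb of a start, whereas *Id2* had 66.4% and 65.7% and *Id3* 67.4% and 62.8%. This contrast turned on the element 1.1 kb upstream, which lay 1052 bp from the start in MPP3 and 1037 bp in MPP4 cells, just past the 1 kb limit, and carried 10.9 and 10.3 CPM. The downstream element 3.3 kb from the start was listed in MPP4 cells only, at 5.19 (percentile 77.4), and a peak 9.1 kb upstream in MPP3 cells only, at 3.38 (percentile 12.1). The peaks given to *Gm14162* lie just beyond, from 5.5 kb after the *Id1* start in MPP3 cells, and the first of them stood at 7.26 in MPP3 and 6.43 in MPP4 cells.

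**Figure D2:**
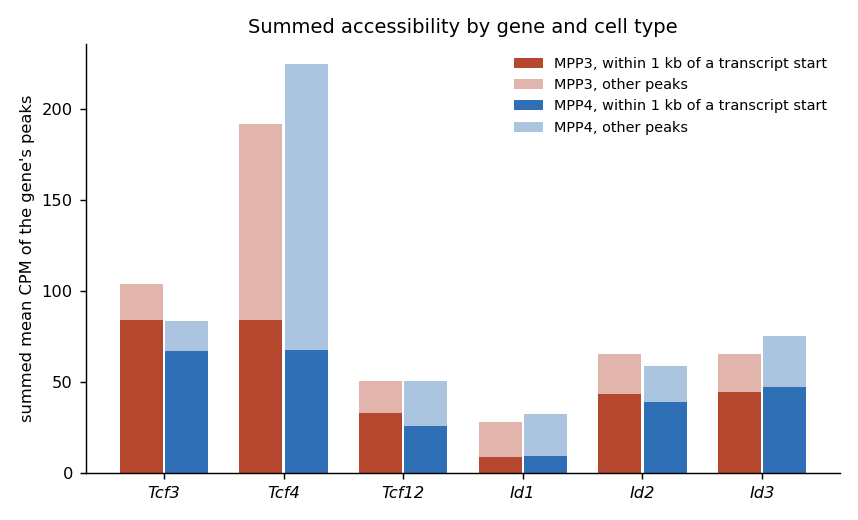
Summed accessibility of the 6 genes. Bars give the sum of the mean CPM of a gene's peaks in MPP3 (red) and MPP4 (blue) cells, with the dark part from peaks centred within 1 kb of a transcript start and the pale part from all others. Each bar is a single value over 4 libraries without an error. *Tcf4* has the tallest bars, 192.0 and 224.5 CPM, mostly from peaks away from starts, and *Id1* the shortest.

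The order of summed accessibility was *Tcf4*, *Tcf3*, *Id3*, *Id2*, *Tcf12* and *Id1* in both cell types, by the closest-gene rule. The order depended on that rule. With every peak in a gene's window it was led in MPP3 cells by *Tcf3* (307.8 CPM), *Tcf4* (192.0 CPM) and *Id1* (147.1 CPM), and *Id2* was lowest (65.2 CPM). With peaks in gene bodies only, *Tcf3* had 7.80 CPM and *Tcf12* (62.4 CPM) came after *Tcf4* (181.0 CPM). *Id3* and *Id2* were neighbours within 0.5 CPM in MPP3 cells, so their order there rests on a difference that cannot be judged without replicate values. By class, the median peak of the Id genes lay at percentile 80.7 in MPP3 and 77.2 in MPP4 cells, and the median peak of the E protein genes at 40.5 and 42.2. *Tcf4* held most of the E protein peaks, 24 of 37 and 28 of 41. By gene, the classes overlapped in MPP3 cells, where the median *Tcf3* peak lay at percentile 74.1 and that of *Id1* at 53.3. In MPP4 cells these lay at 56.8 and 74.6. The overlap in MPP3 cells rests on division by peak length. Undivided, the median *Tcf3* peak there lay at percentile 51.9 and that of *Id1* at 58.7. The classes also differed in where peaks lay. Of the E protein peaks, 23 of 37 in MPP3 and 25 of 41 in MPP4 cells were intronic and away from a start. The Id genes, 1.16 to 3.34 kb long, have little room for such peaks and had 0. Their peaks lay at promoters (4 in MPP3, 3 in MPP4 cells), upstream (5 and 4) or downstream (2 and 3). Median GC content was 63.9% and 63.7% for Id peaks, 50.0% and 49.4% for E protein peaks, and 52.5% and 51.9% for all peaks.

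Sharing of peaks between MPP3 and MPP4 cells was close to that of all peaks. An overlap of at least 1 bp was found for 38 of the 48 MPP3 peaks (79.2%, 95% Wilson interval 65.7% to 88.3%) and for 39 of the 51 MPP4 peaks (76.5%, 63.2% to 86.0%). Over all peaks the shares were 75.7% and 76.7%. The intervals cover counting error only. Of the single-cell-type peaks, 5 of 10 in MPP3 and 9 of 12 in MPP4 cells belonged to *Tcf4*. This gene held 24 of the 48 member peaks in MPP3 and 28 of the 51 in MPP4 cells, so in MPP3 cells the shares were the same.

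In the peaks found in both cell types, the level in MPP4 less that in MPP3 cells had a median of -0.13 over the 38 members and -0.01 over all 66324 shared peaks. Of the 38, 17 had the higher level per kb in MPP4 cells. Peak lengths differ between the cell types, and some directions turn without division by length. Undivided, the *Id2* promoter had 43.3 CPM in MPP3 and 38.8 CPM in MPP4 cells. The element 12.7 kb upstream of *Tcf3* had 7.15 and 7.73 CPM. The central 90% of all shared peaks ran from -0.63 to 0.72. By definition the rest of all shared peaks lie outside this range, and the 5 of 38 member peaks outside it are near that share. All 5 were from E protein genes, which held 29 of the 38. They were *Tcf4* at 232.2 kb (1.28) and 5.2 kb upstream (0.77), *Tcf12* at 14.6 kb (0.84) and 215.7 kb (-0.65), and *Tcf3* at 9.5 kb upstream (-0.84). The 9 shared Id peaks ranged from -0.29 to 0.44. The groups are small and peaks of 1 gene are not replicates, so these counts describe the genes only.

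**Figure D3:**
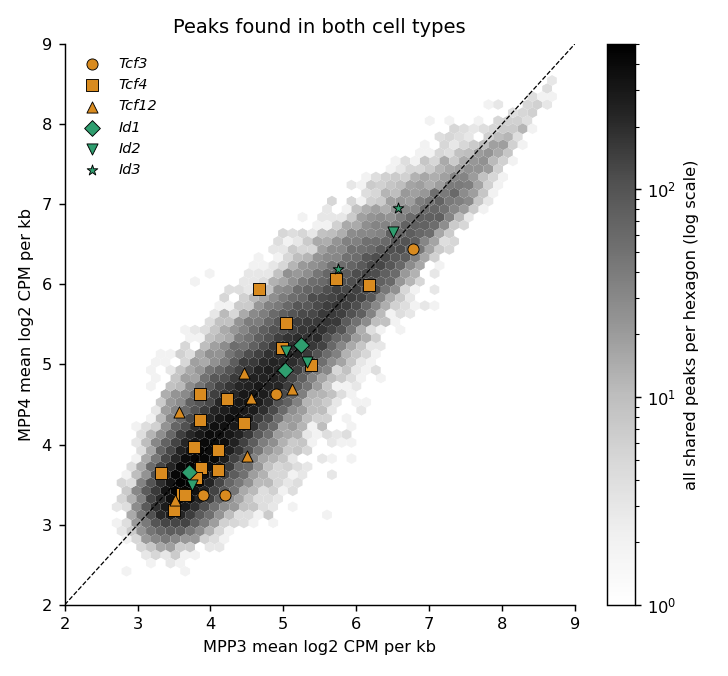
Level of each peak found in both cell types. The horizontal axis is the mean log2 CPM per kb in MPP3 and the vertical axis that in MPP4 cells, grey hexagons count all 66324 shared peaks on a log scale, colored symbols are the 38 member peaks, and the dashed line marks equal values. The *Tcf4* square at 4.66 and 5.94 and the *Tcf12* triangle at 3.57 and 4.40 lie above the line and toward the edge of the hexagons, and the *Tcf3* circles lie below the line.

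E-boxes of the type bound by E2A (CAGGTG or CAGCTG) were counted in the central 200 bp of each peak on both strands. They were found in 8 of 11 Id peaks in MPP3 (72.7%, 95% Wilson interval 43.4% to 90.3%) and 7 of 10 in MPP4 cells (70.0%, 39.7% to 89.2%). The shares over all peaks were 28.8% and 29.5%, and 25.7% and 26.0% over all promoter peaks. E protein genes had a match in 12 of 37 peaks in MPP3 (32.4%) and 14 of 41 in MPP4 cells (34.1%). Among the Id genes, all 4 *Id2* peaks held an E-box in both cell types, and *Id1* had matches in 2 of 4 peaks in each. In *Id3* the peak at the gene start held none, and the downstream element had a match. The MPP3 intronic peak 1.3 kb into *Id3*, which also counts as a promoter peak, had matches too. With any E-box (CANNTG), the Id shares were 9 of 11 peaks, or 81.8% (52.3% to 94.9%) in MPP3 and 8 of 10 (49.0% to 94.3%) in MPP4 cells, against 65.6% and 66.4% of all peaks, so that the difference was smaller. Of the Id peaks, 9 in each cell type overlap a peak of the other, so both shares rest largely on the same DNA. The intervals cover counting error only and treat peaks of the same gene as independent. GC content differs between these lists, as given above, and its part in the shares was not tested.

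The EBF1 consensus was found in 4 of 37 E protein peaks in MPP3 (10.8%, 95% Wilson interval 4.29% to 24.7%) and 3 of 41 in MPP4 cells (7.32%, 2.52% to 19.4%), intervals that include the shares of all peaks (4.68% and 3.74%). Over whole peaks the shares were 8.11% of E protein and 7.46% of all peaks in MPP3, and 4.88% and 6.49% in MPP4 cells. Of the Id peaks, 0 of 11 and 0 of 10 held it, for which the upper bounds of the Wilson intervals are 25.9% and 27.8%. In MPP3 cells the matches were at the *Tcf3* introns (3.7 and 9.9 kb), at *Tcf12* 11.8 kb and at 1 peak of *Tcf4*. In MPP4 cells they were at *Tcf3* 9.9 kb and 2 peaks of *Tcf4*. Those at *Tcf3* 3.7 kb, at *Tcf12* 11.8 kb and at 1 *Tcf4* peak of MPP4 cells lay in the window but outside the peak. Over whole peaks, an EBF1 match within 50 bp of an E-box was found in 0 member peaks and in 1.45% and 1.14% of all peaks. Pairs that reach beyond a peak were not counted. A match to a word is a description of the sequence and not a site of binding.

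**Figure D4:**
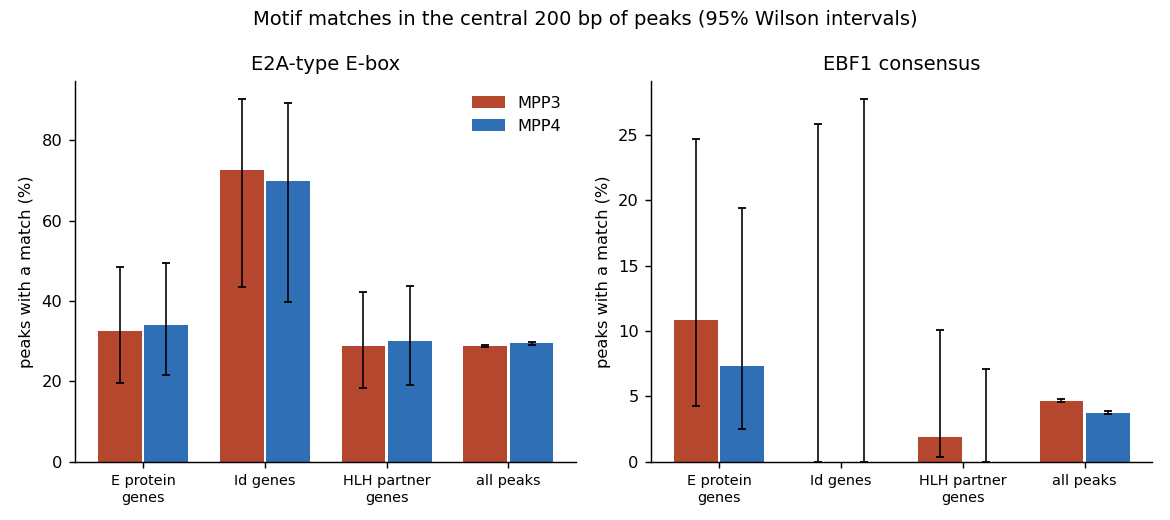
Share of peaks with a motif in their central 200 bp. The left panel gives the E-boxes CAGGTG and CAGCTG and the right panel the EBF1 consensus, for E protein genes, Id genes, HLH partner genes and all peaks in MPP3 (red) and MPP4 (blue) cells. Error bars are 95% Wilson intervals for counting error. Id peaks stand at 72.7% and 70.0% for the E-box, with wide intervals from 11 and 10 peaks, against 28.8% and 29.5% of all peaks.

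Other HLH genes and cofactors of E protein complexes were described from a list of 12 genes, with 52 peaks on 11 genes in MPP3 and 50 peaks on 12 genes in MPP4 cells. Their median peak lay at percentile 72.0 in MPP3 and 67.6 in MPP4 cells, between those of the Id and E protein genes in both. *Lyl1*, an HLH partner of E proteins in stem cells and progenitors, had a single promoter peak at percentile 99.9 in both cell types, above each peak of the 6 genes. *Tal1*, its relative of erythroid and stem cells, had summed accessibilities of 109.3 CPM in MPP3 and 66.0 CPM in MPP4 cells. The cofactor genes *Cbfa2t3* and *Lmo2* lay at percentiles 99.5 and 97.9 among genes in MPP3 cells and 99.5 and 98.5 in MPP4 cells. *Id4*, the fourth Id gene, had 1 peak in MPP3 and 2 in MPP4 cells, with sums of 5.99 and 9.56 CPM, below *Id1*. The central 200 bp of the *Id4* peaks held 0 E-boxes, also of the wider form CANNTG. E-boxes were found in 28.8% and 30.0% of the peaks of this list.

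Genes much like each member were searched by the distance over 4 values, the log2 of summed CPM and the log2 of the number of peaks in each cell type, among 23296 genes with a peak in both. *Tcf3* was closest to *Ldha*, *Gpd1l* and *Entpd7* (distances 0.06 to 0.10). *Tcf4* was closest to *Ephb2*, *Fyn* and *Zfp704* (0.20 to 0.21), which had 23 to 27 peaks each. *Tcf12* was closest to *Itm2b*, *Adarb1* and *Cttnbp2nl* (0.07 to 0.15). *Id1* was closest to *Gm39458*, *Pot1b* and *Ubl7* (0.02 to 0.07), *Id2* to *Ccdc69* and *Gm46210* (0.01 and 0.04) and *Id3* to *Gm27252*, *Rogdi* and *Plk2* (0.08 to 0.17). The likeness is in numbers and summed levels only.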

How the data were processed

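Members and lists were chosen with earlier results of these data known. The authors trimmed reads with cutadapt 2.10, mapped them to mm10, removed duplicates, kept fragments of up to 150 bp, identified peaks with MACS2 2.2.7.1 and merged the peaks of both genotypes within each cell type. Tool versions follow the submitters' processing notes and the paper's methods. For each peak, the authors deposited the mean log2 CPM over the 4 libraries of a cell type from edgeR 3.32.0. In each table, 4 further columns hold the authors' own genotype comparison (log2 fold change, F statistic, p-value and FDR); these were not used, so no genotype comparison was made. Library depths were not analysed here.

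Peak positions were read as 0-based and are given 1-based. A peak could belong to a gene if its centre lay in a GENCODE vM21 transcript, up to 20 kb upstream or 10 kb downstream. Among such transcripts the closest was taken, by the distance of the peak centre to the transcript's start, midpoint or end. A peak in the body of a long gene could thus be closer to a short gene. Levels are the deposited mean log2 CPM less the log2 of peak length in kb. Intervals are 95% Wilson intervals. Motifs and the printed sequences were read from GRCm38. For peaks shorter than 200 bp the motif window reaches beyond the peak. The text names, for each gene, its highest promoter peak, its 3 highest peaks and the highest peak of a single cell type; other peaks named were chosen after their values were seen. Assignment, overlap and motif steps were tested on simulated data. Calculations used Python 3.11.15 with numpy 2.4.6, pandas 2.3.3, scipy 1.17.1 and pysam 0.24.0, and plots matplotlib 3.10.9. Alternatives covered the assignment rule, a minimum mean log2 CPM of 1, peak length, overlap, promoter distance and motif definition. Values of some genes of the lists are not reported here.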

Additional observations from a re-analysis of the deposited data

How the results depend on the processing

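Without division by peak length, the median percentile in MPP3 cells was 54.2 for the 6 genes, 49.7 for the E protein and 69.4 for the Id genes, and in MPP4 cells 48.9, 39.2 and 68.1. With every peak centred in a gene's window, whether or not another gene was closer, summed accessibility in MPP3 cells was 867.8 CPM for the 6 genes (505.2 in the report), 576.6 for the E protein and 291.2 for the Id genes, and in MPP4 cells 806.7 for the 6 genes (525.1) and 564.9 for the E protein genes. *Id1* then changed from the lowest sum to 147.1 CPM in MPP3 and 101.5 CPM in MPP4 cells, the third of the 6 genes. With peaks in gene bodies only, the Id genes kept 3 of 11 peaks (87.5 CPM) in MPP3 and 2 of 10 (86.1 CPM) in MPP4 cells. With any E-box (CANNTG), the share was 64.6% for the 6 genes and 59.5% for the E protein genes in MPP3 and 64.7% and 61.0% in MPP4 cells, against 65.6% and 66.4% of all peaks. With both flanking bases of the EBF1 consensus, it was 2.08% and 2.70% in MPP3 and 1.96% and 2.44% in MPP4 cells. The cause of the shift with peak length was not tested, and the others follow from the wider or narrower definitions. The other 67 of 90 values stayed within 1.5 times or within their intervals. No paired analysis was possible because the deposited values are means over libraries and no test was run. Leaving out a replicate could not be run for the same reason. Depth per library, and so the error of weak peaks, is unknown here.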
